A study of Mus musculus with 12 samples.

Results

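The enzymes and the transporter that make, export and turn over the lipids of the epidermal barrier were followed in healing mouse skin wounds. The group comprised 10 genes, chosen by name from the 55487 genes of the expression tables: Alox12b, Aloxe3, Sdr9c7, Abca12, Cers3, Elovl4, Pnpla1, Ugcg, Degs2 and Acer1. All 10 were found in every table, and all 10 passed the filter on low values in each comparison.

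The outermost layers of the epidermis are sealed by sheets of ceramides, cholesterol and free fatty acids. Differentiating keratinocytes elongate fatty acids to very long chains, join them to sphingoid bases to form ceramides, esterify part of these with linoleate to form acylceramides, and load them as glucosylceramides into lamellar granules that are secreted at the top of the granular layer. Lipoxygenases then oxidize the linoleate, which allows the ceramides to be bound to the cornified envelope. Inherited loss of several of these genes causes ichthyosis, and a skin wound removes this layer until keratinocytes have closed the gap and differentiated again.

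Messenger RNA libraries were made from the total RNA of full-thickness back-skin wounds of male C57BL/6JNarl mice, a wild-type strain, which were 6 weeks old by the study's methods. Wounds of the sham group received Pluronic F127, a gel carrier, once daily, and CAP-treated wounds received 10 µM capsaicin in the same gel. Capsaicin, the pungent compound of chili pepper, activates the sensory nerve channel TRPV1. Wounds were sampled at day 3 or day 6, with 3 libraries in each of the 4 groups (sham day 3, CAP day 3, sham day 6, CAP day 6), and the sample was the wound with the tissue around it, so each library mixed epidermis, dermis, blood and immune cells. The sources used here do not say whether the libraries of a group came from separate mice, so each p-value measures the spread between these libraries only.

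Levels were given as TPM (a share of all transcripts, corrected for transcript length), from which the sequencing depth cannot be read, and 18533 to 19325 genes per library reached 0.3 TPM. Pearson's r of log2 levels between libraries, across genes, was 0.956 to 0.975 within a group and 0.934 to 0.975 between groups. Keratinocyte markers were high in every library, as the label of skin wound calls for: the summed level of 8 basal keratinocyte markers was 12970 TPM or more, and no listed marker found in the tables, of any cell type, was at 0 in all libraries of a group. Differences are given on the scale of log2(TPM + 0.1), fitted with limma. A gene was counted as past the threshold when its unadjusted p was under 0.05 and its difference at least 2-fold.

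Alox12b (chr11:69156989-69169792) and Aloxe3 (chr11:69125896-69149115) lie on the same strand of chromosome 11 in GRCm38, with 7873 bases between the end of Aloxe3 and the start of Alox12b. The other members lie apart, Acer1 at chr17:56953490-56982126 (minus strand), Pnpla1 at chr17:28858411-28890309 (plus strand), Elovl4 at chr9:83778692-83806277 (minus strand), Cers3 at chr7:66743504-66823691 (plus strand), Abca12 at chr1:71242276-71414910 (minus strand), Ugcg at chr4:59189257-59222833 (plus strand), Sdr9c7 at chr10:127898518-127911761 (plus strand) and Degs2 at chr12:108678711-108702315 (minus strand). In the annotation, Degs2 overlaps Evl and Gm33467, Pnpla1 overlaps Pnpla1os, and Acer1 overlaps AC073683.1. The sources do not say whether reads were counted by strand, and reads from these overlaps cannot be assigned with certainty.

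The 250 bases before the RefSeq start (GRCm38.p6, 5′ to 3′ on the strand of the gene) are shown for Acer1, Elovl4 and Pnpla1, because in these the CAP and sham libraries of day 6 did not overlap (Aloxe3, the other such member, had no entry). Capitals mark CACCC (the core bound by KLF factors) and CCAAT (the CCAAT box), read on both strands, so GGGTG marks CACCC on the other strand. Acer1 is shown from chr17:56982127-56982376, Elovl4 from chr9:83806306-83806555 and Pnpla1 from chr17:28858161-28858410.

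Acer1: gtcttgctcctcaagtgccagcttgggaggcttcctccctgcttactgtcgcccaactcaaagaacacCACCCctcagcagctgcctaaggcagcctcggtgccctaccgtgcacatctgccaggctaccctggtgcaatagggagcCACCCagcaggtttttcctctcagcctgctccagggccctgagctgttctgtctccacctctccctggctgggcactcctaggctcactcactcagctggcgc

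Elovl4: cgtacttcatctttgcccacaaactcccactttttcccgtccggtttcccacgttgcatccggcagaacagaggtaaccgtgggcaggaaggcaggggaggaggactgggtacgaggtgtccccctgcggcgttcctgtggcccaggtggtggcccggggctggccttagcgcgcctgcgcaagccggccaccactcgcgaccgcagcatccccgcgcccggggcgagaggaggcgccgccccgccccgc

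Pnpla1: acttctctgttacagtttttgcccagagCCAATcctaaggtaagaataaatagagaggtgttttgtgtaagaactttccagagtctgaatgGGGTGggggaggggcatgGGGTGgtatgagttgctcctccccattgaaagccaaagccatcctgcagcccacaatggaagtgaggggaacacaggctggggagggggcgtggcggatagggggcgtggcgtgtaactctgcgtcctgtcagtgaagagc

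CACCC was present in the windows of Acer1, at 182 and 103 bases before the start, and of Pnpla1, at 159 and 141 bases, and Elovl4 had none of the 5 motifs searched. Among the 9 members with a RefSeq promoter, 7 held CACCC, which 52% of all 32851 promoters held as well. These include Ugcg, Alox12b, Sdr9c7 and Degs2, whose windows overlapped the annotated gene by 250, 83, 17 and 9 bases. The window of Ugcg thus lay wholly inside its gene. TATAAA (the TATA box) was found in 1 member, Sdr9c7, and in 12.4% of all promoters, and CCAAT was found in 1 member, Pnpla1, and in 33.8% of all. TGANTCA, the AP-1 motif, and AACCNGTT, the grainyhead-like motif, were found in none of the 9, against 6.75% and 1.79% of all promoters. These matches are letters only, and binding was not measured.

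Elovl4, which elongates fatty acids beyond the length other elongases reach, had the highest mean level of the 10 members in all 4 groups, from 192 ± 53.4 TPM (SD, n = 3) in sham wounds at day 6 to 360 ± 102 TPM in CAP-treated wounds at day 6. Its range did not overlap that of the next member in any group. Ugcg, Sdr9c7 and Alox12b followed in an order that differed between groups, with means between 79.8 and 150 TPM, and Alox12b was without overlap below Sdr9c7 in sham wounds and below Ugcg in CAP-treated wounds at day 3. Pnpla1 had the lowest mean in each group, from 26.7 ± 6.56 TPM in sham wounds at day 6 to 45.3 ± 10.4 TPM in CAP-treated wounds at day 6. The 5 members between them (Aloxe3, Abca12, Cers3, Degs2 and Acer1) lay between 37.2 and 88.0 TPM and overlapped their neighbors in the order within each group, with 3 exceptions. All Aloxe3 libraries of sham wounds at day 3 and all Acer1 libraries of CAP-treated wounds at day 3 were above all Pnpla1 libraries of the same group, and all Sdr9c7 libraries of sham wounds at day 6 were above all Aloxe3 libraries.

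**Figure D1:**
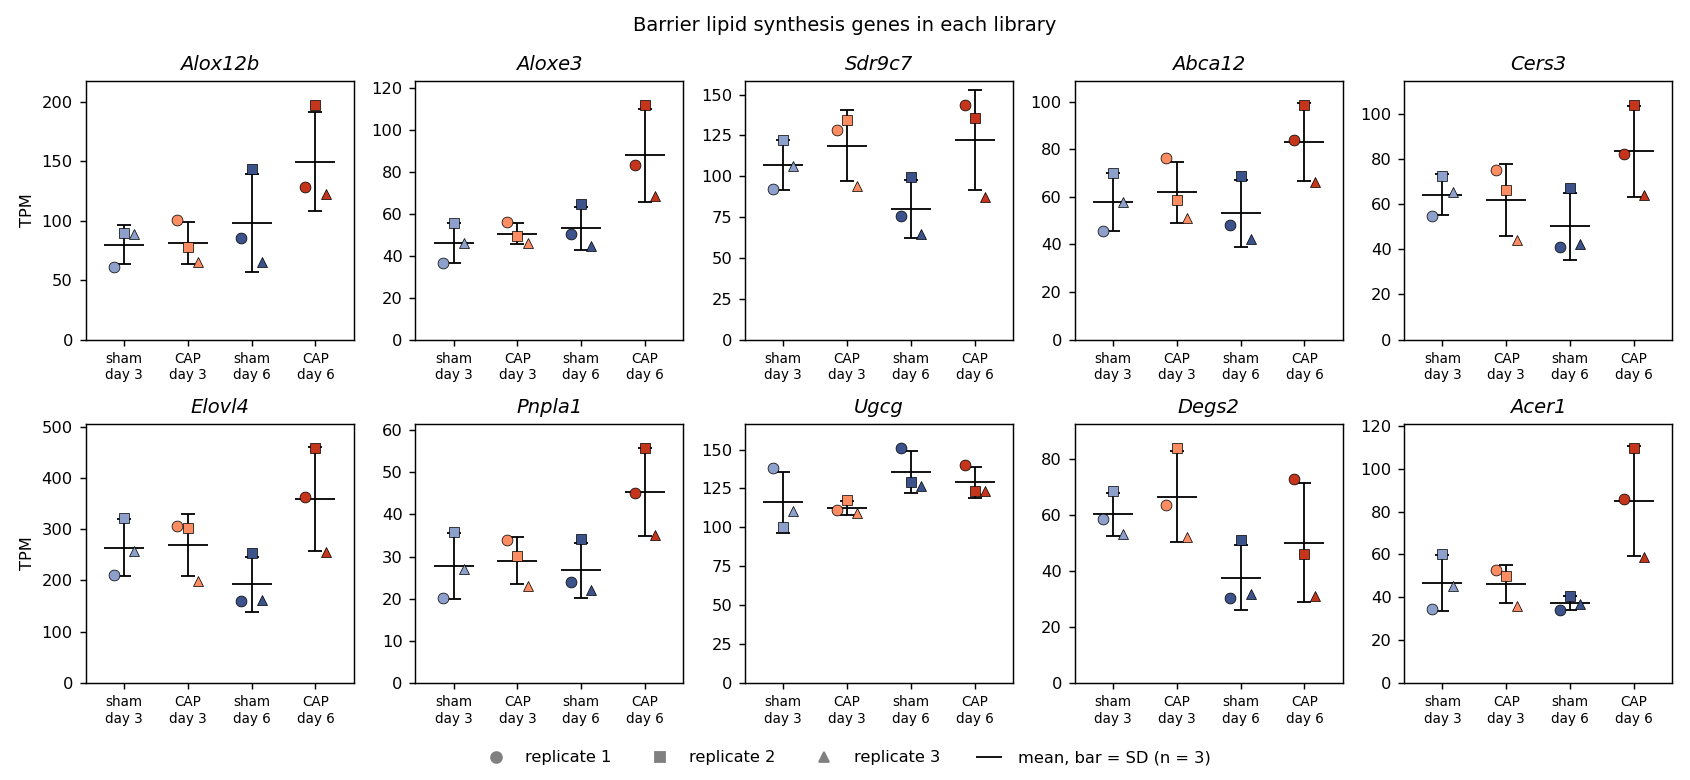
TPM of each member (vertical axis, from 0) in the 12 libraries, by group (horizontal axis). Marker shapes give the replicate number, and bars give the mean and SD of 3 libraries. At day 6, the CAP-treated libraries of Acer1, Elovl4, Pnpla1 and Aloxe3 lie above all sham libraries, whereas those of Ugcg overlap them.

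The first comparison asked whether capsaicin changed these genes at day 6. Acer1 rose 2.21-fold in CAP-treated wounds and was the only member past the threshold. The other members of lipid synthesis, export and oxidation were 1.29- to 1.86-fold higher in the fit, and Ugcg was 0.95 of the sham level, a direction that turned under another scaling. The median log2 difference of the 10 members was 0.69, beside -0.12 over all 18323 genes tested. Of these genes, 1.46% were past the threshold with a higher level and 2.34% with a lower level. At an unadjusted p under 0.05 alone, 7 of 10 members were higher, beside 6.67% of all genes. Adjusted p-values under 0.05 (limma, Benjamini-Hochberg over all genes) were reached by none of the members and by 0% of all genes, although 3517 genes had an unadjusted p under 0.05. In 4 members every CAP-treated library was above every sham library, beside 8.01% of all genes. In whole wound tissue, a larger share of epidermal cells and more RNA per cell cannot be told apart.

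Acer1, the alkaline ceramidase of differentiated epidermis, which splits ceramides into a sphingoid base and a fatty acid, measured 34.0, 40.8 and 36.9 TPM in the sham libraries of day 6 and 85.9, 110 and 58.7 TPM in the CAP-treated libraries. The lowest CAP-treated library was thus above the highest sham library, and the sham libraries lay close together. The log2 difference was 1.14 (SE 0.22), with an adjusted p = 0.205 by limma. The exact two-sided permutation test gave p = 0.1, the smallest that 3 libraries against 3 can give. Without CAP day 6 replicate 2, the highest library, the log2 difference was 0.93 and Acer1 was no longer past the threshold, so the count of members fell from 1 to 0. Without CAP day 6 replicate 3 it was 1.39.

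Elovl4 measured 161, 254 and 163 TPM in the sham libraries of day 6 and 363, 460 and 257 TPM in the CAP-treated libraries. The groups were separated narrowly, by the third CAP-treated library against the second sham library. The log2 difference was 0.90 (SE 0.26), with an adjusted p = 0.212 by limma. It passed 2-fold without sham day 6 replicate 2 (log2 difference 1.11), without CAP day 6 replicate 3 (1.12) and after median-ratio scaling (1.01), and each of these brought the count of members past the threshold to 2.

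Cers3, the ceramide synthase that uses the very long acyl chains made by Elovl4, measured 40.9, 67.2 and 42.4 TPM in the sham libraries and 82.3, 104 and 63.9 TPM in the CAP-treated libraries. The groups overlapped through the second sham and the third CAP-treated library, and the log2 difference was 0.74 (SE 0.25). Pnpla1, the transacylase that places linoleate on the ceramide to form acylceramide, measured 24.0, 34.2 and 21.9 TPM against 45.1, 55.9 and 35.0 TPM. Its groups did not overlap, by less than 1 TPM, and its log2 difference was 0.76 (SE 0.22). Both had an unadjusted p under 0.05 but stayed under 2-fold, with adjusted p = 0.222 for Cers3 and adjusted p = 0.212 for Pnpla1 by limma.

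Degs2, the desaturase and hydroxylase that makes phytoceramides, measured 30.2, 50.9 and 31.7 TPM in the sham libraries and 73.0, 46.2 and 31.2 TPM in the CAP-treated libraries. The CAP-treated libraries spread from near the lowest sham library to well above the highest, and the log2 difference of 0.37 had a 95% confidence interval of -0.42 to 1.16. Ugcg, which adds glucose to ceramide before it is packed into lamellar granules and is active in many tissues, measured 151, 129 and 126.5 TPM in the sham libraries and 140, 124 and 123 TPM in the CAP-treated libraries. Its log2 difference was -0.07, with a 95% confidence interval of -0.33 to 0.20 that excludes the size of the Acer1 difference, and the sign turned to 0.05 after median-ratio scaling.

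Abca12, the transporter that loads glucosylceramides into lamellar granules, measured 48.2, 68.7 and 42.1 TPM in the sham libraries of day 6 and 84.0, 98.8 and 66.2 TPM in the CAP-treated libraries, so that the second sham library overlapped the third CAP-treated library. The log2 difference was 0.66 (SE 0.22), with an adjusted p = 0.223 by limma and an unadjusted p under 0.05. Among the enzymes that oxidize the linoleate, Aloxe3 measured 50.4, 64.5 and 44.5 TPM against 83.3, 112 and 68.4 TPM, without overlap, with a log2 difference of 0.71 (SE 0.21) and an adjusted p = 0.212 by limma. Alox12b, which acts in the step before Aloxe3, measured 85.2, 144 and 64.9 TPM against 128, 198 and 122 TPM. Its sham libraries were the most widely spread of these, and its log2 difference of 0.65 (SE 0.31) did not reach an unadjusted p of 0.05 (adjusted p = 0.297 by limma, exact two-sided permutation p = 0.3). Sdr9c7, a dehydrogenase that acts on the oxidized linoleate after both lipoxygenases, measured 75.9, 99.6 and 64.8 TPM against 144, 136 and 87.2 TPM, with a log2 difference of 0.60 (SE 0.23) and an adjusted p = 0.242 by limma. The third CAP-treated library of Sdr9c7 was below the second sham library.

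The number of members with an unadjusted p under 0.05 at day 6 rested on single libraries. It was 4 without sham day 6 replicate 1, without sham day 6 replicate 3 and without CAP day 6 replicate 2, and 5 to 8 without each of the others. The share of all genes at that p is not given for these fits. Without CAP day 6 replicate 3, 3 members had an adjusted p under 0.05 by limma, as had 1430 of all genes, whereas no gene had one with all 6 libraries. CAP day 6 replicate 3 was the lowest CAP-treated library of day 6 in 10 of 10 members.

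At day 3, CAP-treated and sham wounds did not differ beyond the spread in any member. The log2 differences ran from -0.08 to 0.15, with a median of 0.06, beside -0.05 over all 18330 genes. By limma, 0 members were past the threshold and 0 had an unadjusted p under 0.05. Over all genes, 0.426% were past the threshold with a higher and 1.16% with a lower level, 1.46% and 5.14% had an unadjusted p under 0.05 with a higher and a lower level, and 0.0164% had an adjusted p under 0.05. The libraries of all 10 members overlapped, beside 2.86% of genes whose CAP-treated libraries were all higher and 8.75% whose CAP-treated libraries were all lower. Acer1 measured 34.4, 60.2 and 45.4 TPM in sham wounds and 52.6, 50.1 and 36.1 TPM in CAP-treated wounds, and its log2 difference of 0.00 had a 95% confidence interval of -0.55 to 0.56. The interval was narrowest for Ugcg, from -0.34 to 0.27, and widest for Pnpla1, from -0.48 to 0.65, so changes of up to about these sizes were not detectable with 3 libraries a group. In 9 of 10 members the sign at day 3 turned when a library was left out (Sdr9c7 was the exception).

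**Figure D2:**
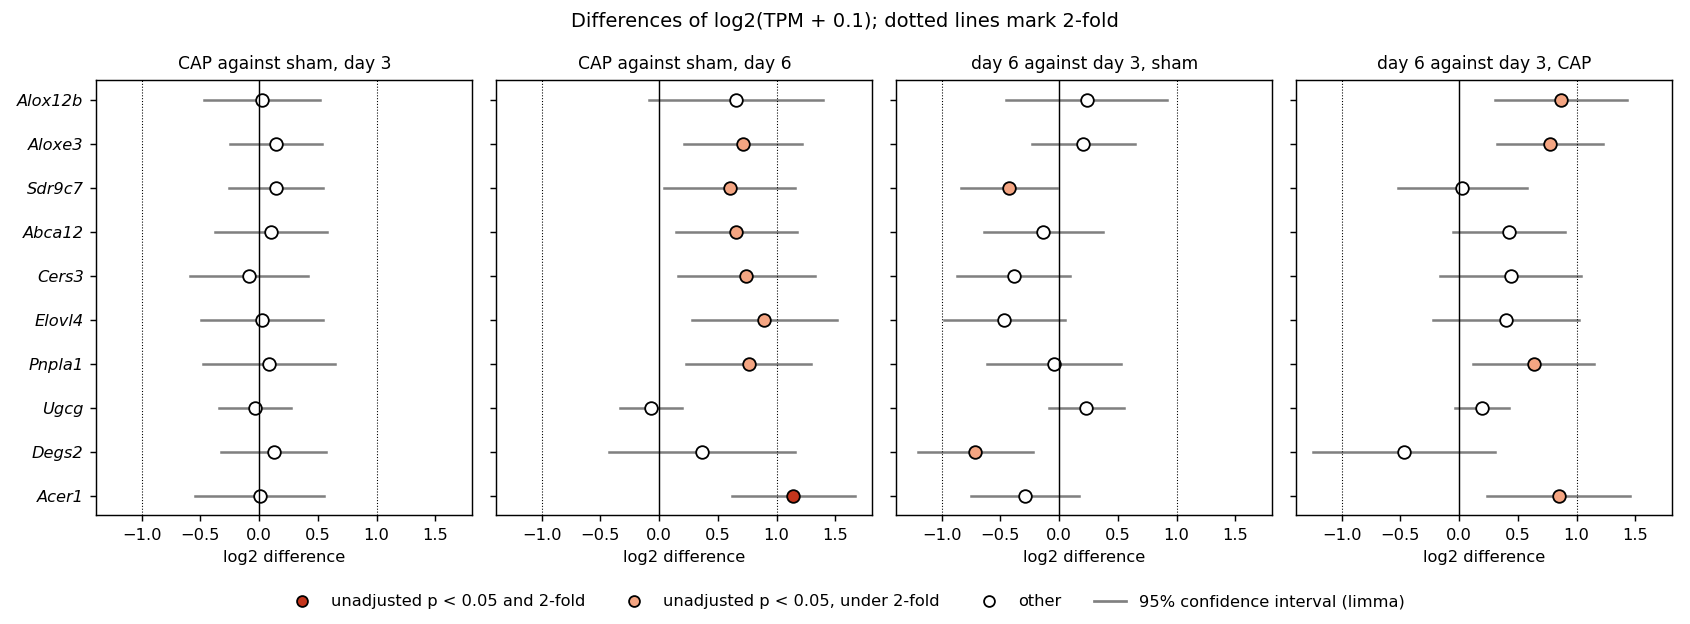
Log2 difference of each member (horizontal axis, scale of log2(TPM + 0.1)) in 4 comparisons, with the limma 95% confidence interval. Acer1 in the comparison of CAP against sham at day 6 is the only point past the threshold, at 1.14, and all intervals of day 3 include 0.

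Between day 3 and day 6, the sham and the CAP-treated wounds were compared separately. In sham wounds, 0 of 10 members were past the threshold by limma and 0 had an adjusted p under 0.05, while 2.13% of all 18368 genes were past the threshold with a higher level, 1.61% with a lower level, and 2.29% had an adjusted p under 0.05. At an unadjusted p under 0.05 alone, 2 members were lower at day 6, beside 7.91% of all genes. Degs2 measured 58.6, 68.7 and 53.4 TPM at day 3 and 30.2, 50.9 and 31.7 TPM at day 6. It was the only member whose libraries were all lower at day 6, as in 10.6% of all genes, with a log2 difference of -0.71 (SE 0.21) and an adjusted p = 0.151 by limma. Sdr9c7 measured 92.1, 122 and 106 TPM at day 3 and 75.9, 99.6 and 64.8 TPM at day 6, with a log2 difference of -0.43 (SE 0.17) and an adjusted p = 0.290 by limma. The members with an unadjusted p under 0.05 numbered 5 without sham day 3 replicate 1, 4 without sham day 6 replicate 2 and 1 without each of the other libraries. For these fits the share of all genes at that p is not given. Without sham day 6 replicate 2, Degs2 had an adjusted p = 0.0364 by limma, with a log2 difference of -0.95. How many of all genes had an adjusted p under 0.05 in that fit is not given, beside 2.29% with all libraries.

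In CAP-treated wounds, 0 of 10 members were past the threshold by limma and 0 had an adjusted p under 0.05, beside 1.27% of all 18202 genes past it with a higher level, 1.52% with a lower level and 0.00549% with an adjusted p under 0.05. At an unadjusted p under 0.05 alone, 4 members were higher at day 6, beside 5.66% of all genes, and in 5 members every day 6 library was above every day 3 library, beside 8.05%. Alox12b measured 101, 78.2 and 64.9 TPM at day 3 and 128, 198 and 122 TPM at day 6, with a log2 difference of 0.87 (SE 0.23) and an adjusted p = 0.316 by limma. Aloxe3 measured 56.0, 49.6 and 45.9 TPM at day 3 and 83.3, 112 and 68.4 TPM at day 6, with a log2 difference of 0.77 (SE 0.19) and an adjusted p = 0.295 by limma. Both lipoxygenases were thus clear of their day 3 range in every CAP-treated library of day 6. Acer1 (log2 difference 0.85, adjusted p = 0.343 by limma) and Pnpla1 (0.63, adjusted p = 0.362) were separated in the same way, and Ugcg was separated by a smaller difference of 0.20 (adjusted p = 0.485) that did not reach an unadjusted p of 0.05. Degs2 was the only member with a negative log2 difference, -0.47, and its interval ran from -1.24 to 0.31. The count past the threshold became 1 without CAP day 3 replicate 1 (Alox12b, 1.03) and without CAP day 6 replicate 3 (Acer1, 1.09). Without CAP day 6 replicate 3, the members with an unadjusted p under 0.05 numbered 7. The share of all genes at that p is not given for this fit. Its count of all genes past the threshold was the highest of the fits that left out 1 library.

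The difference of the CAP effect between the days was tested in 1 fit of all 12 libraries. Acer1 was past the threshold, with a log2 difference of differences of 1.14 (SE 0.35) and an adjusted p = 0.428 by limma, and it was the only member past it. Past the threshold were 2.18% of all 20267 genes with a positive and 2.73% with a negative value, and 0% had an adjusted p under 0.05, although 2292 had an unadjusted p under 0.05. At an unadjusted p under 0.05 alone, 3 members had a positive value, beside 5.43% of all genes: Acer1, Elovl4 (0.87, adjusted p = 0.431 by limma) and Cers3 (0.83, adjusted p = 0.431). For the other 7 members the test did not reach an unadjusted p of 0.05, and the value was 0.68 for Pnpla1, 0.45 or more for Alox12b, Aloxe3, Abca12 and Sdr9c7, 0.24 for Degs2 and -0.04 for Ugcg, whose sign turned to 0.01 after median-ratio scaling. Acer1 fell below 2-fold without sham day 3 replicate 2 (0.94), without CAP day 3 replicate 3 (0.97) and without CAP day 6 replicate 2 (0.93), which left 0 members past the threshold. Elovl4 passed it without sham day 3 replicate 1, and both Elovl4 and Cers3 passed it without sham day 6 replicate 2 and without CAP day 6 replicate 3, which gave 2, 3 and 3 members. The members with an unadjusted p under 0.05 numbered 5, 7 and 6 without these libraries in turn, 3 without CAP day 3 replicate 1 or 2, and 1 without each of the others. For the fits that left out a library, the share of all genes at that p is not given.

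The rest of the pathway was described by 3 further lists. The first held 15 genes of acyl chain elongation, activation and acylceramide formation, all of which were tested. At day 6, 1 of the 15 was past the threshold between CAP-treated and sham wounds, Elovl7, an elongase of long-chain fatty acids. An unadjusted p under 0.05 in either direction was reached by 8. Over all 18323 genes, 6.67% reached it with a higher and 12.5% with a lower level. Past the threshold were 1.46% with a higher and 2.34% with a lower level. The median log2 difference of the list was 0.50, with a range from -0.80 to 1.04 (11 genes higher, 4 lower). Elovl7 measured 22.5, 31.5 and 23.8 TPM in sham wounds and 60.0, 66.2 and 37.3 TPM in CAP-treated wounds, without overlap, with a log2 difference of 1.04 (SE 0.24) and an adjusted p = 0.205 by limma. The list of sphingoid base and ceramide synthesis holds serine palmitoyltransferase and the ceramide synthases other than Cers3. In it, 0 of 15 tested genes were past the threshold by limma, 6 had an unadjusted p under 0.05, and the median was 0.14. In the list of ceramide processing and breakdown, which holds the glucocerebrosidases, sphingomyelinase and the ceramidases other than Acer1, 0 of 14 were past it, 4 had an unadjusted p under 0.05, and the median was 0.08. In the sphingoid base list, the differences of day 6 ran from -0.72 to 0.66 (10 genes higher, 5 lower). In the processing list they ran from -0.97 to 0.86 (9 higher, 5 lower). At day 3, 0 genes of the 3 lists were past the threshold and 1 had an unadjusted p under 0.05. Over all genes, 1.46% had such a p with a higher and 5.14% with a lower level.

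Over time, 0 genes of the 3 lists were past the threshold in sham wounds. The shares of all genes past this threshold, higher and lower, were 2.13% and 1.61% there and 1.27% and 1.52% in CAP-treated wounds. In CAP-treated wounds Elovl3, an elongase known from sebaceous glands, was past it, at 0.304, 0.409 and 0.813 TPM at day 3 and 1.80, 0.963 and 0.974 TPM at day 6, which are low levels (log2 difference 1.18, adjusted p = 0.386 by limma). In the difference of the CAP effect between days, Psap and Sptssb were past the threshold with negative values, beside 2.73% of all genes. Psap, the precursor of the saposins that help lysosomal enzymes to degrade sphingolipids, measured 3678, 2870 and 3835 TPM in sham and 3636, 5981 and 10720 TPM in CAP-treated wounds at day 3, and 4686, 5440 and 7031 TPM against 2886, 2577 and 6607 TPM at day 6. The value was -1.46 (SE 0.59), with an adjusted p = 0.428 by limma. Sptssb was at or below 1.03 TPM in all 12 libraries and listed at 0 in 4 of them, so its value is not given.

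**Figure D3:**
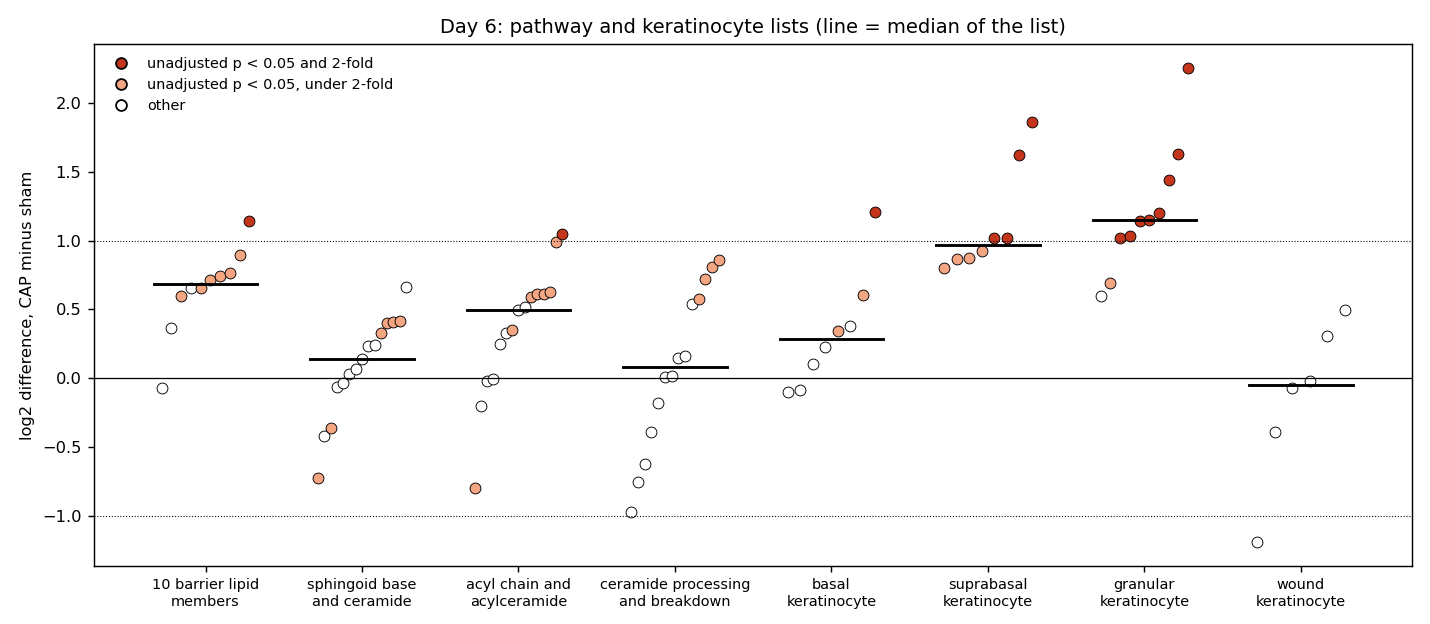
Log2 difference of CAP against sham wounds at day 6 (vertical axis) for each tested gene of 8 lists, with the median as a line and 2-fold as dotted lines. The medians run from -0.05 for the wound keratinocyte list to 1.15 for the granular list. The 10 members (0.69) lie between the basal (0.29) and suprabasal (0.97) keratinocyte lists.

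At day 6, all 8 suprabasal and all 10 granular keratinocyte markers had a positive log2 difference of CAP-treated against sham wounds. Among basal markers 6 were higher and 2 lower, and among wound-edge markers 2 were higher and 4 lower. Over all 18323 genes, 1.46% were past the threshold with a higher and 2.34% with a lower level. An unadjusted p under 0.05 was reached by 6.67% and 12.5%, and an adjusted p under 0.05 by 0%. Of 8 suprabasal keratinocyte markers 4 were past the threshold with a higher level in CAP-treated wounds, namely Krt1, Calml3, Krt10 and Dsc1. All 8 had an unadjusted p under 0.05. Their summed level was 19210 to 23420 TPM in sham wounds and 40850 to 91390 TPM in CAP-treated wounds. Of 10 granular markers 8 were past the threshold, led by Flg, the filaggrin precursor (log2 difference 2.26), with summed levels of 3578 to 5697 TPM against 8572 to 16560 TPM. Of 8 basal markers 1 was past it, Krt15 (1.21), with summed levels of 12970 to 15300 TPM against 14370 to 25320 TPM. Of 6 markers of wound-edge keratinocytes, such as Krt6a and Krt16, 0 were past the threshold by limma and 0 had an unadjusted p under 0.05, and the sums were 10740 to 17480 TPM against 7358 to 25170 TPM. At day 3, none of these 4 lists held a gene with an unadjusted p under 0.05 by limma between CAP-treated and sham wounds. Over all genes, 1.46% had one with a higher and 5.14% with a lower level.

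Among the other cell types at day 6, 3 of 6 endothelial markers (Pecam1, Cdh5 and Emcn) and 1 of 8 leukocyte markers (Itgam) were past the threshold with a lower level in CAP-treated wounds. Over all genes, 2.34% were past it with a lower and 1.46% with a higher level. The leukocyte sum was 9359 to 11290 TPM in sham wounds and 4196 to 10050 TPM in CAP-treated wounds. Myh4 of 8 muscle markers and Tchh of 2 tested hair follicle markers were past it with a lower level and Lep of 6 adipocyte markers with a higher level, whereas 0 of 7 sebaceous gland, 0 of 8 fibroblast and 0 of 5 erythroid markers tested were past it by limma (0, 1 and 0 at an unadjusted p under 0.05). At day 3, the erythroid list was the only cell type list with genes past the threshold. These were 5 of 5 tested, higher in CAP-treated wounds, beside 0.426% of all genes. The part of these cell types in the differences of the members was not tested beyond the ratios that follow.

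Within each library, the level of each member was set against the mean log2 level of a marker list, which gives the member relative to that list. Relative to the basal list, 9 of 10 members were higher in CAP-treated than in sham wounds at day 6, with a median log2 difference of 0.35 and a range from -0.40 (Ugcg) to 0.81 (Acer1), beside a median of -0.46 over all 18323 genes, of which 12.2% were higher. Only Acer1 was higher without overlap of the libraries, beside 2.21% of all genes, and only Ugcg was lower without overlap, beside 47.6%. Relative to the suprabasal list, 9 of 10 members were lower, with a median of -0.44, beside a median of -1.24 over all genes, of which 98.7% were lower. Without overlap 6 members were lower (Aloxe3, Sdr9c7, Abca12, Cers3, Pnpla1 and Ugcg), beside 82.2% of all genes, so the count is no result about the members. Acer1 was the exception, at 0.02 (exact two-sided permutation p = 0.7). Relative to the granular list, 10 of 10 were lower, with a median of -0.53 and a range from -1.28 (Ugcg) to -0.07 (Acer1), beside a median of -1.34 over all genes, of which 99.1% were lower. Without overlap 8 were lower, all but Alox12b and Acer1, beside 80% of all genes, and this count is no result about the members either. The lowest exact p that 3 libraries against 3 can give is 0.1, so none of these ratios could pass 0.05.

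The libraries of a group differed in the same direction across most members. Sham day 3 replicate 2 and sham day 6 replicate 2 were the highest of their groups in 9 of 10 members each, and CAP day 3 replicate 3 and CAP day 6 replicate 3 were the lowest of theirs in 10 of 10. CAP day 6 replicate 2 was the highest of all 12 libraries in 7 members. The suprabasal sum was also highest in sham day 3 replicate 2 (30890 TPM), sham day 6 replicate 2 (23420 TPM) and CAP day 6 replicate 2 (91390 TPM) within their groups, and lowest in CAP day 3 replicate 3 (17040 TPM) and CAP day 6 replicate 3 (40850 TPM). The leukocyte sum was lowest in sham day 3 replicate 2 (5452 TPM) and CAP day 6 replicate 2 (4196 TPM) and highest in CAP day 3 replicate 3 (11690 TPM) and CAP day 6 replicate 3 (10050 TPM) within their groups. In sham wounds at day 6 this order was not seen, as replicate 2 lay between the others (9890 TPM). The order depended in part on the measure. By the mean log2 level of the leukocyte list, CAP day 3 replicate 2 (8.99) was above CAP day 3 replicate 3 (8.95). By that mean, sham day 6 replicate 2 (8.97) was the highest of its group.

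**Figure D4:**
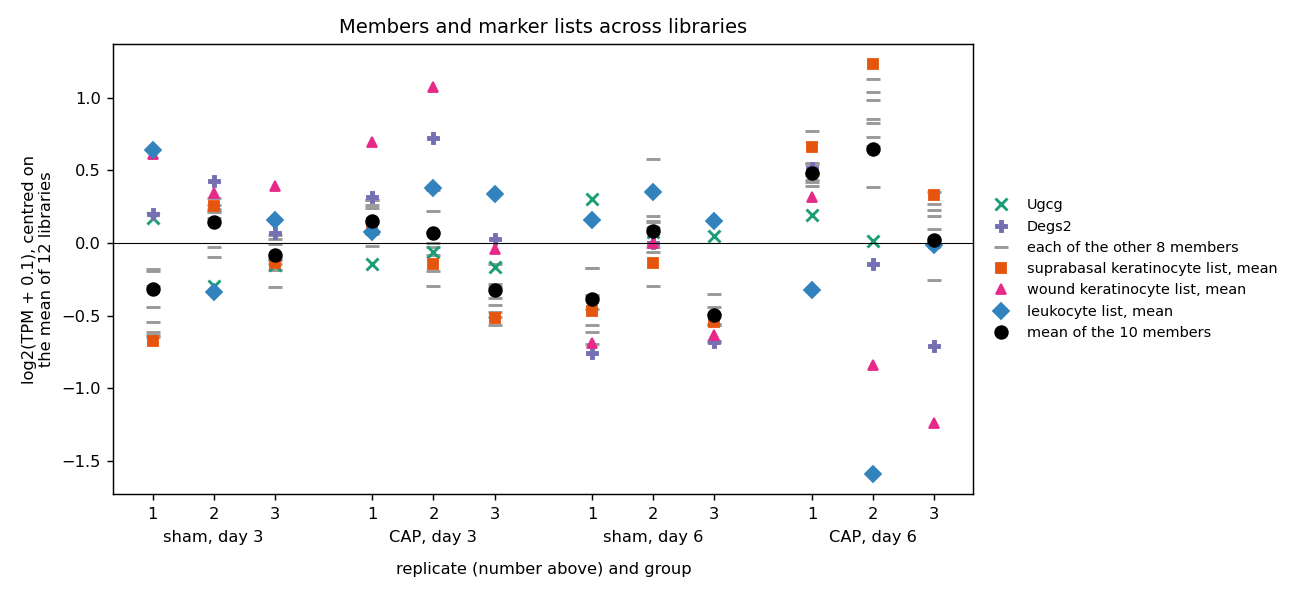
Centred log2 level (vertical axis) in each library (horizontal axis) for the mean of the 10 members, for each member and for the mean of 3 marker lists. The mean of the members is highest in CAP day 6 replicate 2, where the suprabasal list is highest and the leukocyte list lowest, and Degs2 and the wound keratinocyte list are the lowest points in CAP day 6 replicate 3.

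The members were not alike in their course over the 12 libraries. The root mean square distance of each member's centred log2 level from the mean course of all 10 was smallest for Abca12 (0.08), Cers3 (0.12), Pnpla1 (0.13) and Elovl4 (0.14) and largest for Ugcg (0.39) and Degs2 (0.44). Measured in the same way against the mean course of each keratinocyte list, Acer1 lay 0.10 from the suprabasal and 0.11 from the granular list, and Pnpla1, Aloxe3, Abca12 and Alox12b were also nearest to the suprabasal list, at 0.16 to 0.27. Elovl4 and Cers3 were nearest to the granular list (0.21 and 0.25) and Sdr9c7 to the basal list (0.20). Degs2 was nearest to the wound keratinocyte list (0.34), which differed little from its distance to the basal list (0.36). In CAP-treated wounds at day 6 its levels of 73.0, 46.2 and 31.2 TPM stood beside sums of the wound keratinocyte list of 25170, 12120 and 7358 TPM, in the same order, while those of Acer1 did not follow that order. The sums of the basal list in these libraries, 25320, 21010 and 14370 TPM, had the same order as the Degs2 levels. Ugcg was far from all 4 lists (0.32 or more). The ratio of Alox12b to Aloxe3, the neighboring lipoxygenase genes, stayed between 1.41 and 2.23 in all 12 libraries, with a median of 1.68.

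Among the 16159 other genes whose mean over all libraries was 1 TPM or more, the courses nearest to the mean of the 10 members over the 12 libraries were those of Tmprss13 (root mean square distance 0.05 on the log2 scale), Mpzl3 (0.07), Rps6kb2 (0.07), Slc22a23 (0.07) and Vsig10l (0.08). Tmprss13, a membrane serine protease, had a mean of 53.7 ± 14.1 TPM (SD, n = 3) in sham and 83.8 ± 21.1 TPM in CAP-treated wounds at day 6. Mpzl3, a membrane protein of the immunoglobulin family, had 48.9 ± 10.0 TPM and 83.0 ± 21.97 TPM. These genes were chosen for their likeness, so no test is given for them.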

How the data were processed

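RNA of 12 wound libraries (4 groups of 3) was analysed from tables that the authors deposited as TPM per gene, 1 library per table, with 0.0001 standing for 0. Per the labels and methods, reads were trimmed with Trimmomatic 0.36 and transcripts quantified with StringTie on mm10, and gene coordinates matched the GENCODE M21 annotation for 54863 of 55227 gene IDs found there. TPM keeps no sequencing depth, so no counting interval is given. Genes averaging 0.3 TPM or more in each compared group were fitted as log2(TPM + 0.1) with limma 3.58.1 (R 4.3.3, intensity trend), a 2-group fit per comparison and 1 fit of 12 libraries for the difference between days, where the minimum applied to at least 1 group. Benjamini-Hochberg adjustment ran over all genes tested. Fold changes understate those of low genes. Exact two-sided permutation tests of single members used scipy 1.17.1. The fit was tested on simulated data. The members, pathway lists and cell type lists were chosen with earlier results of these data known. Named genes were all members, at most 4 genes per list past the threshold, and the 5 nearest courses. Alternatives were the pseudocount, the filter, the scaling, a joint fit, a replicate block and leaving out each library. Over the genes tested, the deviations of same-numbered libraries from their group means had correlations of -0.11 to 0.22. This cannot show whether the numbers pair the libraries, and the main fits did not pair them.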

Additional observations from a re-analysis of the deposited data

Results flagged for a closer look

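Acer1 was marked because its difference between CAP-treated and sham wounds itself differed between the days, by 1.14 on the log2 scale (SE 0.35, adjusted p = 0.428 by limma, unadjusted p under 0.05). Its mean was 46.7 ± 12.96 TPM in sham and 46.2 ± 8.91 TPM in CAP-treated wounds at day 3, and 37.2 ± 3.42 TPM against 84.8 ± 25.6 TPM at day 6 (SD, n = 3). The value lay between 0.93 and 1.38 when a library was left out, and the adjusted p did not reach 0.05 in the fit of 12 libraries.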

How the results depend on the processing

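The count of members past the threshold was 0 at day 3, 1 at day 6, 0 in sham wounds over time, 0 in CAP-treated wounds over time and 1 for the difference between days. It was unchanged by the pseudocounts, the filters, quantile normalization and the joint fit (for the difference between days, the fit without the intensity trend). Median-ratio scaling gave 2 at day 6. With the replicate block the counts were 0, 1, 0, 0 and 1, and the members with an unadjusted p under 0.05 numbered 0, 8, 5, 7 and 5, against 0, 7, 2, 4 and 3 without it. That number was also 8 at day 6 and 1 in sham wounds over time in the joint fit. It was 1 in sham wounds over time without a filter, and 1 for the difference between days without the intensity trend. The share of all genes at that p is not given for these settings, so these shifts are no result about the members. Leaving out 1 library gave counts of 0 to 2 at day 6, 0 to 1 in CAP-treated wounds over time and 0 to 3 for the difference between days, and 0 throughout in the other 2 comparisons.

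Of 760 single values recomputed, 34 changed sign, none of them past the threshold. Ugcg became 0.022 (median-ratio scaling) and 0.011 (quantile normalization) at day 3. With median-ratio scaling it became 0.047 at day 6 and 0.015 for the difference between days. That scaling divides each library by its median ratio to the geometric gene means, over genes at 0.3 TPM or more in every library. Without it, the median log2 difference over all genes was -0.12 at day 6. The other sign changes came from leaving out 1 library, with these ranges. At day 3 Alox12b ran from -0.16 to 0.17, Aloxe3 from -0.0091 to 0.29, Abca12 from -0.060 to 0.25, Cers3 from -0.24 to 0.14, Elovl4 from -0.12 to 0.23, Pnpla1 from -0.12 to 0.29, Ugcg from -0.13 to 0.10, Degs2 from -0.059 to 0.29 and Acer1 from -0.20 to 0.21. At day 6 Ugcg ran from -0.13 to 0.012. In sham wounds over time Alox12b ran from -0.081 to 0.49, Abca12 from -0.34 to 0.016 and Pnpla1 from -0.25 to 0.16, and in CAP-treated wounds over time Sdr9c7 from -0.13 to 0.25. For the difference between days Ugcg ran from -0.17 to 0.065 and Degs2 from -0.069 to 0.54.

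Over all genes, the count past the threshold was 290 at day 3 (154 with a pseudocount of 1 TPM, 568 without a filter, 454 with the filter in 1 group), 697 at day 6 (385 and 1028), 688 in sham wounds over time (405 and 1156), 507 in CAP-treated wounds over time (299 and 842) and 994 for the difference between days (580 with a pseudocount of 1 TPM). Leaving out 1 library gave 204 to 510, 311 to 1483, 641 to 873, 382 to 886 and 657 to 1777, with the highest counts of the last 2 and of day 6 without CAP day 6 replicate 3. In sham wounds over time 420 genes had an adjusted p under 0.05, against 114 without a filter and 0 in the joint fit. The causes were not tested. With 3 libraries a group, the width of the intervals limits what could be detected.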
